A study of Mus musculus with 6 samples.

Results

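Tiles whose methylation level differed widely between the 3 Control libraries of male mouse germ cells are described here, with the levels that the 3 CSDS libraries showed in the same tiles. A tile is a 500-bp window of an autosome on a fixed grid. It was eligible if it held at least 3 CpG cytosines listed in all 6 libraries and its reads, summed over those cytosines, reached 100 in every library. Its level is the share of these reads in which the cytosine was read as C, in percent. A tile was kept if the highest of the 3 Control levels lay 20 points or more above the lowest, and 1050 of 139121 eligible tiles (0.755%) met that rule. The tiles were thus selected on the Control levels, so the Control spread is described without a test and nothing rests on it.

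The libraries were made by reduced representation bisulfite sequencing (RRBS), in which a restriction digest enriches short, CpG-rich fragments of genomic DNA and bisulfite turns unmethylated cytosine into a base that is read as T. Both groups are labelled as male germ cells of mice, one as Control and one as CSDS, that is, exposed to chronic social defeat stress, in which a mouse is repeatedly put with an aggressive one. The labels give no strain, genotype, age, duration of stress or germ cell stage, and they do not say whether the 3 replicates of a group are separate animals, so p-values measure only the spread between these samples. At start sites of germline-specific genes such as Dazl and Ddx4, which are unmethylated in germ cells and methylated in most somatic tissues, the median level of 37 eligible tiles lay between 12.8% and 20.6% in the 6 libraries. The medians at start sites of Sertoli markers were lower, 6.62% to 14.9%, and those of Leydig markers higher, 22.8% to 32.2%. Such a level alone therefore does not mark germ cells. Each library listed from 2420308 to 3156788 cytosines, with a median coverage of 44 to 50 reads. At 27 cytosines of mitochondrial DNA, which is largely unmethylated, the median share of reads that showed C was 8.90%, 8.84% and 10.04% in Control 1, 2 and 3 and 8.50%, 4.41% and 4.53% in CSDS 1, 2 and 3.

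In mammals, methylation at CpGs is copied after DNA replication by a maintenance methyltransferase, and most of the genome of male germ cells is heavily methylated while CpG islands at promoters are not. Male germ cells receive their pattern before birth and carry it through spermatogenesis, so the level of a region is usually much alike between animals of a strain. Exceptions are known at some endogenous retroviruses, at some repeats and at ribosomal DNA, where copies differ in methylation within and between individuals.

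The sequences below show how the measured cytosines lie in 4 promoters that the results return to. Each is the RefSeq window from 250 bases before to 50 bases after a start site in GRCm38.p6, printed 5′ to 3′ along the gene, and capitals mark each CpG with a cytosine measured in all 6 libraries. The first 3 windows overlap variable tiles at start sites, with few measured cytosines in 1700029P11Rik (chr15:81980290-81980589, plus strand, 5 measured) and Col7a1 (chr9:108953336-108953635, plus strand, 4 measured) and 40 in Mrps18b (chr17:35916391-35916690, minus strand). The window of Tmem267 (chr13:119488223-119488522, plus strand) was chosen after its values were seen. The reason was that its 96 measured cytosines, at 48 of 50 CpGs, run up to tiles of high mean depth that varied in both groups.
1700029P11Rik: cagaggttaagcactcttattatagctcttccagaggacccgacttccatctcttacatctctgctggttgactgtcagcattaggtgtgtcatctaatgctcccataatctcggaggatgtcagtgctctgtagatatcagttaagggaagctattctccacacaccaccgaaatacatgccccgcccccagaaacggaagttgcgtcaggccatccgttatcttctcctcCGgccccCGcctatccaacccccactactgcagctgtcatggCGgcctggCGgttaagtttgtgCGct
Col7a1: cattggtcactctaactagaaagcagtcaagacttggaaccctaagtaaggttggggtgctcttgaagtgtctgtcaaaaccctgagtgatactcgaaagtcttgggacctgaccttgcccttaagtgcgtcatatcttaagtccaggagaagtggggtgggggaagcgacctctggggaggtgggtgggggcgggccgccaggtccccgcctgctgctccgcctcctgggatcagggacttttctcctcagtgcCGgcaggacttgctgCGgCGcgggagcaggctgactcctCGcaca
Mrps18b: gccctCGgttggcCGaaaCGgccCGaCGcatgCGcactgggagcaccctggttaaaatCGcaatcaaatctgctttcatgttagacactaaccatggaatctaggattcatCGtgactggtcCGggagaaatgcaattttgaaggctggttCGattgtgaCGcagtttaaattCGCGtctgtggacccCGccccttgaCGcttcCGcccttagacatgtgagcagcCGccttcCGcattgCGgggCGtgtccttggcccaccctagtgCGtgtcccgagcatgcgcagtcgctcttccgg
Tmem267: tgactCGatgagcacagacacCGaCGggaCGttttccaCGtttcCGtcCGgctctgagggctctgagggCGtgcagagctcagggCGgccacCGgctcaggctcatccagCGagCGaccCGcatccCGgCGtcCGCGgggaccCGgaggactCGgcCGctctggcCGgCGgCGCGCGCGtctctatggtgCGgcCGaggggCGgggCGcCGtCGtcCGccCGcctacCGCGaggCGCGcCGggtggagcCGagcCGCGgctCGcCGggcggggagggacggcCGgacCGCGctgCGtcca

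Many variable tiles had an intermediate Control mean, which the rule favours. A range of 20 points or more among the Control libraries cannot occur at a Control mean near either end of the scale. The median of the Control means of variable tiles was 53.5%, against 88.7% over all eligible tiles. Of the 1050 tiles, 487 (46.4%) had a Control mean between 30% and 70%, where 8.0% of all tiles lie. Another 139 (13.2%) were under 20% and 144 (13.7%) over 80%, against 26.3% and 57.3% of all tiles. With start sites of chromosome 18 not used, 128 tiles (12.6%) lay within 1 kb of a start site, 421 (41.3%) elsewhere inside a gene and 470 (46.1%) outside genes, against 20.3%, 49.6% and 30.1% of all tiles. In 7412 stable tiles, with a Control mean of 30% to 70% and a Control range under 10 points, these shares were 11.3%, 44.3% and 44.5%. The location was thus much like that of stable tiles of intermediate level. Variable tiles lay on every autosome, in shares from 0.519% of the tiles of chromosome 9 to 1.06% of those of chromosome 12. The median Control range was 23.1 points, beside 3.74 points over all tiles, and the largest was 56.2 points.

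Each Control library was the highest in some tiles and the lowest in others. Control 1, 2 and 3 led in 368, 396 and 286 tiles and were last in 288, 397 and 365. In 335 tiles (31.9%) the highest library stood apart, with a gap to the middle one at least 2 times the gap between the other two, and in 311 (29.6%) the lowest did. Control 2 stood apart most often, as the highest in 143 tiles and as the lowest in 146, against 112 and 68 for Control 1 and 80 and 97 for Control 3. It was also the shallowest library in these tiles, with a median of 186 summed reads against 269 and 221 in Control 1 and 3, and the part of depth in its position was not tested. In 130 tiles a lone high library stood above the other two, both under 20%, and in 115 a lone low one stood below the other two, both over 80%.

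The tile with the largest range was at the start of 1700029P11Rik (gene 66346, chr15:81980501-81981000), whose 10 cytosines are all on the forward strand. Its level was 22.2%, 0.0% and 56.2% in Control 1, 2 and 3 and 15.7%, 5.84% and 20.6% in CSDS 1, 2 and 3. Control 3 was the highest library, and none of the 118 reads of Control 2 summed over cytosines showed C. Those reads amount to a mean of 11.8 per cytosine, on which the 95% Wilson interval of Control 2 reached up to 24.6%. On the same basis the interval of Control 3, from 31.6%, overlapped that of Control 1, up to 41.2%. In the printed window the 5 measured cytosines alone gave 23.1%, 0.0% and 58.2% in Control and 15.2%, 5.47% and 21.5% in CSDS.

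At 2 starts a single Control library was low. At Col7a1 (gene 12836), which encodes the type VII collagen of anchoring fibrils, the tile chr9:108953501-108954000 stood at 79.7%, 33.3% and 80.7% in Control and 38.6%, 46.0% and 50.7% in CSDS. Control 2 lay below all 3 CSDS libraries and the other Control libraries above them, with 11.5 to 17.0 reads per cytosine in Control. On those reads the 95% Wilson intervals of Control 2, up to 61.5%, and of Control 3, from 53.3%, overlapped. The CSDS mean was 45.1% ± 6.10 (SD, n = 3), and the difference of −19.5 points from the Control mean of 64.6% ± 27.1 (SD, n = 3) did not pass (quasi-binomial F test, adjusted p = 0.378). A tile at the start of Gm35076 (gene 102638539, chr8:88512501-88513000) had the same form, with 79.4%, 39.1% and 86.7% in Control and 67.5%, 72.4% and 64.8% in CSDS.

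At other starts that were low in CSDS, 1 or 2 Control libraries were high. The synaptonemal complex gene Sycp2 (gene 320558), needed for pairing of chromosomes in meiosis, had a tile at its start (chr2:178407501-178408000) at 3.64%, 44.4% and 26.4% in Control. The CSDS libraries there were at 5.41%, 4.77% and 4.29%, close to Control 1. In Control 2 each of the 10 measured cytosines of this tile had 18 reads and read 44.4%. Control 1 had 49.4 reads per cytosine. On the 18 reads of Control 2 its 95% Wilson interval ran from 24.6% to 66.3%.

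Mrps18b (gene 66973), which encodes a protein of the mitochondrial ribosome, had a tile at its start (chr17:35916001-35916500) with 6.25%, 43.6% and 17.2% in Control and 8.20%, 5.65% and 1.72% in CSDS. Control 2 and 3 were above all CSDS libraries and Control 1 lay among them. Over the 40 measured cytosines of the printed window, most of them outside that tile, the levels were 8.32%, 20.4% and 14.3% in Control and 10.5%, 4.35% and 2.65% in CSDS, in the same order within each group. At Nipsnap3a (gene 73398, chr4:52989001-52989500) the tile was at 6.0%, 36.4% and 3.33% in Control and 7.56%, 15.5% and 6.92% in CSDS, so Control 2 was the lone high library, though its interval on reads per cytosine, from 18.7%, overlapped that of Control 3, up to 23.4%.

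The other tiles of largest range lay inside or between genes and took several forms. In the tau kinase gene Ttbk1 (gene 106763, chr17:46483501-46484000) Control 1 was alone at 56.7%, with 15.2% and 5.93% in Control 2 and 3 and 17.96%, 12.8% and 21.8% in CSDS. Near Wnt2b (gene 22414), a Wnt ligand gene 792 bp away, Control 2 was alone at 51.4%, with 10.99% and 6.21% in Control 1 and 3 and 13.3%, 3.37% and 17.5% in CSDS. In Cracr2b, which overlaps Gm10575, the Control levels were 5.45%, 50.7% and 21.7% and the CSDS levels 3.49%, 4.16% and 2.34%. A tile 22212 bp from Slc9a2, a sodium-proton exchanger gene, stood at 72.6%, 24.2% and 55.0% in Control while the CSDS libraries stood together at 42.6%, 39.2% and 40.4%. On reads per cytosine the interval of Control 3, from 28.4% to 78.9%, overlapped those of Control 1 and 2, which lay apart. A tile 5407 bp from Gm8024 stood at 59.2%, 72.1% and 26.6% in Control and 55.5%, 44.5% and 50.7% in CSDS, with overlapping intervals of Control 2 and 3 on reads per cytosine.

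**Figure D1:**
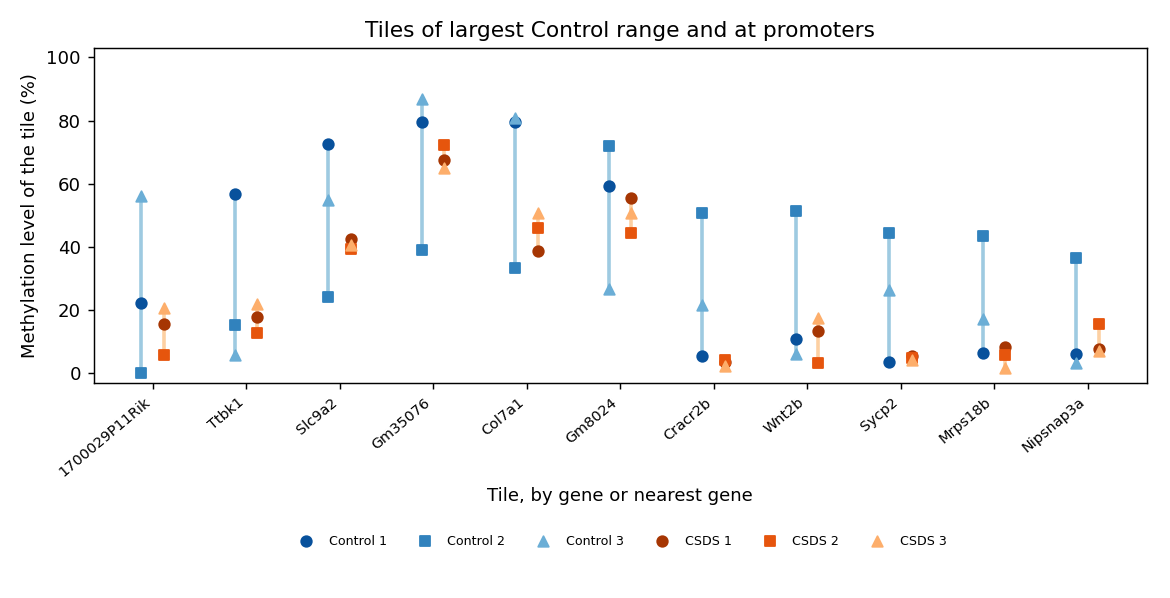
Methylation level in percent of the 8 tiles of largest Control range and of the tiles of largest range at promoter windows, ordered by Control range, with 1 point per library and a bar from the lowest to the highest library of each group. The Control points chose the tiles. At 1700029P11Rik they run from 0.0% to 56.2% and the CSDS points from 5.84% to 20.6%.

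Variable tiles were read less deeply than other tiles. A single read covers several cytosines of a tile and is counted at each, so the depth behind a level is better given as mean reads per cytosine. In the shallowest library of a tile this was 27.4 at the median variable tile and 46.25 at the median eligible tile. Of the variable tiles, 593 (56.5%) had under 30 such reads, against 13.9% of all tiles. The share of eligible tiles that were variable was 9.43% (68 of 721) under 15 reads, 2.18% from 20 to 30, 0.331% from 40 to 50 and 0.0889% (6 of 6749) from 75 to 100. It was 1.44% (10 of 695) at 100 or more reads, and those 10 tiles are described below.

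Tiles of intermediate level followed the same course at higher shares. Among tiles with a Control mean of 30% to 70%, 46.3% were variable under 15 reads, 13.2% from 20 to 30, 1.25% from 50 to 75 and 4.81% at 100 or more. The CSDS range reached 20 points in 22.0%, 9.82%, 1.74% and 1.92% of the same tiles. Although the tiles were selected on this difference, the 95% Wilson intervals of the highest and lowest Control library overlapped in 820 tiles (78.1%) on mean reads per cytosine. In the other 230 they lay apart, which the selection favours. Intervals cover counting error only, since reads are not known to be independent molecules.

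**Figure D2:**
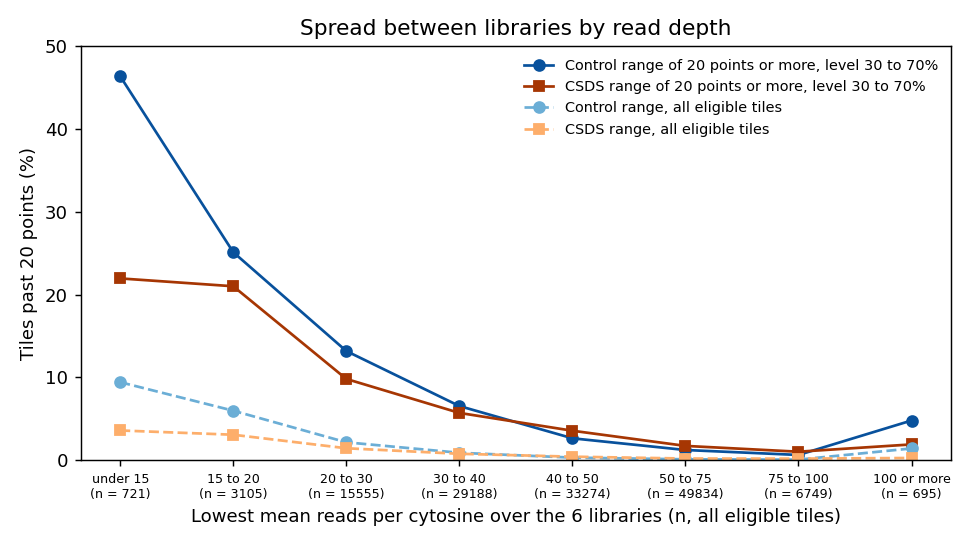
Percent of tiles with a range of 20 points or more against the lowest mean reads per cytosine over the 6 libraries, for Control and CSDS ranges, over all eligible tiles (dashed) and over tiles of 30% to 70% Control mean (solid). Both groups fall with depth, and the Control share rises again to 1.44% of all tiles in the deepest bin.

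Many variable tiles were read on 1 strand only. All measured cytosines lay on a single strand in 305 of them (29.0%), against 6.25% of all tiles. Of tiles read on a single strand 3.51% were variable, and of those read on both, 0.571%. Single-strand tiles were also shallower, with a median of 37 reads per cytosine against 46.7, and the part of depth in this difference was not tested.

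Within a tile, cytosines mostly kept the order of the tile's highest and lowest Control library. Of 7905 cytosines, 7115 were higher in the highest library than in the lowest, and in 559 tiles (53.2%) every cytosine was. Where cytosines lay on both strands, in 745 tiles, both strands kept the order in 679 (91.1%) and differed by 10 points or more in 534 (71.7%). A read reports 1 strand, so cytosines of opposite strands share no read while neighbours on 1 strand do. The order was used in choosing the tiles and these counts only describe how it was spread.

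Only 358 of the 1050 variable tiles had an eligible tile directly beside them, and cytosines in tiles that were not eligible were not examined. Of 391 such pairs, the neighbour was itself variable in 28 (7.16%), and the share was 0.862% at 2 to 4 tiles and 1.26% at 5 to 20 tiles away. The 363 that were not members kept the order of the highest and lowest library in 226 (62.3%), where 54.2% of all adjacent pairs of tiles did. The median difference between those 2 libraries over all 363, positive in the order of the variable tile, was 1.33 points. No run was longer than 2 tiles, and there were 14 such pairs.

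The pair with the largest summed range was in Plch2 (gene 269615), a phospholipase C gene, at chr4:155043001-155044000. Its first tile, of 26 cytosines, stood at 9.09%, 31.5% and 5.68% in Control and 3.95%, 1.962% and 5.62% in CSDS. The second stood at 1.93%, 45.3% and 16.0% in Control and 16.0%, 7.56% and 10.6% in CSDS. Control 2 was the highest library in both tiles. In Gm33262 the pair did not keep 1 order, with 46.2%, 67.4% and 57.9% in the first tile and 47.2%, 38.0% and 69.2% in the second for Control. The pair in the ankyrin gene Ank2 also changed order, with 57.7%, 70.1% and 48.1% and then 76.7%, 46.4% and 50.9%.

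The CSDS libraries, which the rule did not use, had a wider median range in these tiles than over all tiles. The median CSDS range was 9.69 points (interquartile range 6.10 to 14.98) in variable tiles and 4.65 points in all eligible tiles. In 7412 stable tiles, with a Control mean of 30% to 70% and a Control range under 10 points, it was 7.95 points. Only 46.4% of variable tiles had a Control mean in that span. The 2 sets were thus not matched for level, here or in the depth bins that follow. A CSDS range of 20 points or more was reached by 118 variable tiles (11.2%), by 2.50% of those stable tiles and by 0.614% of all tiles. The difference between these shares was not tested, as there is 1 range per tile and group. Variable tiles were shallower than stable ones, with 27.4 against 51.0 reads per cytosine.

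By depth the gap between these shares did not keep 1 size or direction. Variable tiles had the lower share at 15 to 20 reads per cytosine, 13.98% against 19.4% of 62 stable tiles. They had the higher share at 20 to 30 reads (12.7% against 7.17%), at 30 to 40 (7.87% against 3.99%), at 40 to 50 (11.8% against 2.58%) and at 50 to 75 (4.69% against 1.25%). The remaining bins held few tiles of 1 kind, with 9 of 68 variable and 0 of 3 stable tiles under 15 reads, 1 of 6 and 3 of 605 at 75 to 100, and 2 of 10 and 0 of 87 at 100 or more. In the tiles whose Control intervals lay apart on mean reads per cytosine the share was 7.39% (17 of 230), and in the others 12.3% (101 of 820). CSDS 2 and 3 were the deeper libraries, with a median of 374 and 324 summed reads in variable tiles against 268 in CSDS 1.

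**Figure D3:**
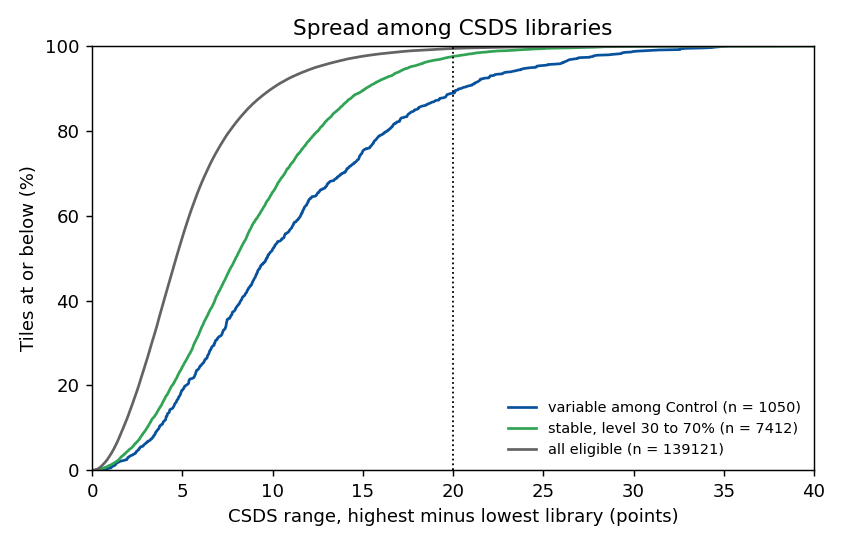
Cumulative percent of tiles against the CSDS range in points, for the 1050 variable tiles, the 7412 stable tiles of 30% to 70% and all 139121 eligible tiles. The dotted line marks 20 points, which 11.2%, 2.50% and 0.614% of the tiles reached.

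Most CSDS levels fell inside the Control span. All 3 lay between the lowest and highest Control library in 577 tiles (55.0%), the CSDS mean did in 913 (87.0%), and the CSDS range was smaller than the Control range in 998, as the choice of tiles by Control range favours. Where the highest Control library stood apart, the CSDS mean was nearer to the other two in 311 of 335 tiles. Where the lowest stood apart, it was nearer to the other two in 200 of 311. The library apart was picked as an extreme of the Control levels, which favours both counts, so they only describe the tiles. Over all eligible tiles, the CSDS mean was below the Control mean in 75.5%.

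Among the variable tiles, those with the largest CSDS ranges differed in which library was high. A tile 23388 bp from Rasd2, which encodes a small GTPase, stood at 73.6%, 42.04% and 77.2% in CSDS and 63.5%, 72.3% and 50.4% in Control. Near the start of Scube1, a gene of a secreted protein with EGF-like repeats, the levels were 35.9%, 16.0% and 1.10% in CSDS and 12.7%, 26.2% and 5.74% in Control. In the myosin gene Myo15b they were 27.1%, 19.05% and 53.6% in CSDS and 49.8%, 29.7% and 24.8% in Control. CSDS 2 was the lowest of the CSDS libraries near Rasd2 and in Myo15b and CSDS 3 near Scube1. CSDS 2 was also lowest 20311 bp from Gm31706, at 46.3% against 74.5% and 81.1%, and in Plekha4, at 22.4% against 56.2% and 47.2%. A tile 96806 bp from Gm23337 stood at 55.4%, 25.1% and 21.0% in CSDS, with CSDS 1 alone. The lowest mean in these 6 tiles was 14.0 to 46.0 reads per cytosine.

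Only 6 of the 118 tiles that varied in both groups had a mean of 50 or more reads per cytosine in every library, and 4 of them form 2 adjacent pairs. These tiles were singled out after their values were seen. The first pair lies at Tmem267 (gene 633640), which encodes a transmembrane protein. Its first tile, chr13:119488501-119489000, with 55 cytosines, stood at 29.8%, 52.3% and 50.7% in Control and 58.5%, 47.8% and 34.2% in CSDS. Depth was uneven within this first tile. In Control 1 it ran from 11 reads at chr13:119488757 to 237 at chr13:119488984. The next tile, of 15 cytosines, stood at 34.8%, 61.5% and 53.7% in Control and 61.2%, 56.5% and 31.3% in CSDS. Control 1 and CSDS 3 were the low libraries in both tiles, and the groups overlapped fully (quasi-binomial F test, adjusted p = 0.920 and 0.939). Coverage ran on across the border of the 2 tiles. In Control 1 it was 234 reads at chr13:119489000 and 237 at chr13:119489035, both on the forward strand. The same reads may thus count in both tiles, and the pair is not 2 independent cases.

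The tile before them, of 112 cytosines, kept the same libraries low as a whole, with a Control range of 19.6 points, just short of the rule. It stood at 22.9%, 42.4% and 40.5% in Control and 50.3%, 34.7% and 22.4% in CSDS. The 96 cytosines of the printed Tmem267 window, all but 8 of them in this tile, gave 22.7%, 43.8% and 41.4% in Control and 51.1%, 35.9% and 24.5% in CSDS, at 104 to 200 reads per cytosine. The pattern did not extend to a tile 1 kb before it, in 3110070M22Rik, with 34.6%, 28.1% and 34.9% in Control and 38.0%, 54.0% and 28.9% in CSDS. The pattern did not hold throughout the tile of 112 cytosines either. It includes the 12 measured cytosines of a second RefSeq start of Tmem267 (window chr13:119487836-119488135). They gave 51.2%, 7.80% and 40.4% in Control and 38.5%, 27.3% and 9.27% in CSDS. Control 1 was thus the highest Control library there and Control 2 the lowest, at 11.75 reads per cytosine in Control 2.

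The second pair lies in Cmss1, which Filip1l overlaps. Its first tile (chr16:57391001-57391500, 39 cytosines) stood at 18.9%, 43.6% and 34.3% in Control and 34.7%, 14.6% and 23.4% in CSDS. The second, of 14 cytosines, stood at 47.0%, 68.1% and 52.3% in Control and 47.2%, 16.1% and 27.4% in CSDS. Control 1 and CSDS 2 were the lowest libraries of their groups in both. The first tile was read at 339 or more reads per cytosine, where the library medians were 44 to 50. Its summed reads were 13237, 16322 and 17976 in Control and 29148, 78498 and 73940 in CSDS, so depth differed widely between libraries. Whether these reads come from a single copy was not tested. The other 2 tiles were 45561 bp from Sp4, with 72.1%, 58.3% and 48.2% in Control and 65.5%, 52.7% and 39.5% in CSDS, and in Gpr45, with 46.7%, 38.2% and 59.85% and 57.5%, 36.2% and 47.1%.

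**Figure D4:**
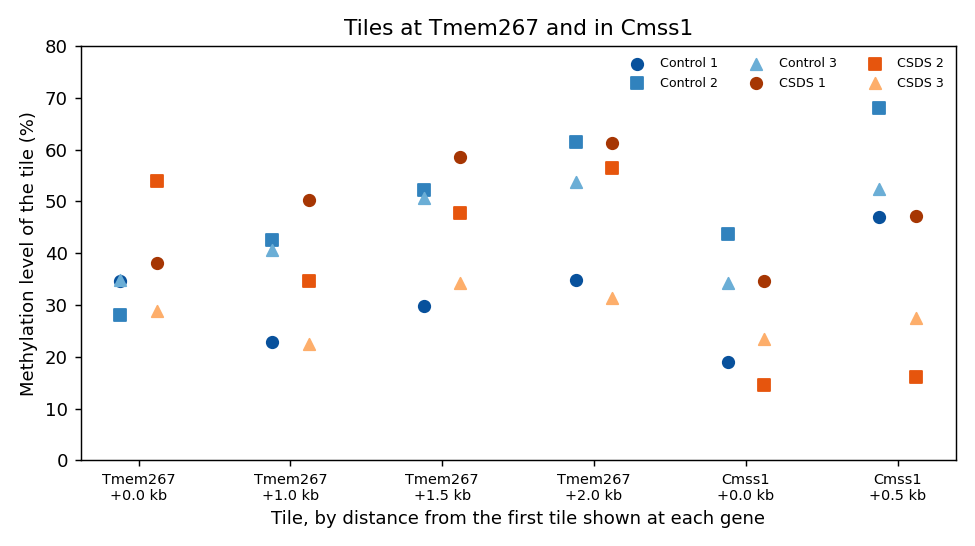
Methylation level in percent of tiles at Tmem267 and in Cmss1, 1 point per library, placed by distance from the first tile shown at each gene. At Tmem267 the 3 tiles from 1.0 kb on have Control 1 and CSDS 3 lowest in their groups, and in Cmss1 both tiles have Control 1 and CSDS 2 lowest.

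All 10 variable tiles with 100 or more reads per cytosine, a set picked after values were seen, ordered the Control libraries alike, with Control 2 highest, Control 3 next and Control 1 lowest. That order held in 19.3% of the 695 tiles of such depth, in 17.8% of variable tiles and in 16.9% of all eligible tiles. Besides Tmem267 and Cmss1, the 10 include 2 tiles near LOC115490388, 1 of them at 20.6%, 42.4% and 36.99% in Control and 33.0%, 18.2% and 26.9% in CSDS. One in Hoxa3, a homeobox gene of anterior patterning, stood at 59.8%, 84.8% and 73.2% in Control and 69.8%, 68.7% and 78.9% in CSDS, on 3 cytosines. One lay 104821 bp from Gm28590. With every cytosine weighted equally, the Control range fell from 21.1 to 8.41 points near Gm28590 and from 21.8 to 11.1 and from 21.4 to 11.5 points in the 2 tiles near LOC115490388, so that these 3 would not be members. Another 3 lie in ribosomal DNA. The 2 tiles near LOC115490388 are adjacent and rank the 6 libraries in the order given below for most deep ribosomal tiles. The 10 tiles are thus not 10 separate regions, and their shared order is not a count of independent cases.

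Ribosomal DNA is the tandem repeat that is transcribed into the RNA of ribosomes. The genome holds many near-identical copies, the annotation places part of 1 unit at Rn18s-rs5 (gene 110183, chr17:39846354-39848202), and reads of all copies may gather there, so each level is a mixture over copies. The unit had 12 eligible tiles, of which 11 were read at over 1000 reads per cytosine and 3 of these were variable. The deposited coverage of its cytosines was 68.7, 93.5 and 96.4 times the library median in Control and 121, 109 and 142 times in CSDS.

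Over the 903 cytosines of the 11 deep tiles, the level was 14.7%, 31.7% and 26.8% in Control 1, 2 and 3 and 23.0%, 12.8% and 18.5% in CSDS 1, 2 and 3. Control 1 and CSDS 2 were low, Control 2 was highest, and the groups overlapped. Control 2 was above Control 1 at 860 cytosines (95.2%). The mitochondrial shares were 8.90%, 8.84% and 10.04% in Control 1, 2 and 3 and 8.50%, 4.41% and 4.53% in CSDS 1, 2 and 3. Their part in these levels was not tested. Of the 11 deep tiles, 10 ranked all 6 libraries in 1 order, from Control 2 through Control 3, CSDS 1, CSDS 3 and Control 1 to CSDS 2.

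The rule thus took 3 deep tiles out of a stretch that varied as a whole, with Control ranges from 13.4 to 22.1 points and CSDS ranges from 9.50 to 13.1 points. The member inside Rn18s-rs5 (chr17:39846501-39847000) was at 15.6%, 37.1% and 32.1% in Control and 28.5%, 15.4% and 22.0% in CSDS. The Control mean of the unit was 24.4% ± 8.78 (SD, n = 3) and the CSDS mean 18.1% ± 5.09 (SD, n = 3). The difference of −6.27 points was within the Control spread, and adjusted p over the deep tiles ran from 0.230 to 0.417 in the quasi-binomial F test.

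The exception among the deep tiles, a member in AY036118 (chr17:39848501-39849000), had CSDS 2 just above Control 1, at 14.1% against 13.95%. The fourth member of the unit, which was read less deeply, differed more. The tile chr17:39847001-39847500, with 53.4 reads per cytosine in its shallowest library, stood at 75.5%, 68.9% and 49.1% in Control and 44.0%, 46.7% and 40.3% in CSDS. With every cytosine weighted equally its Control range fell from 26.4 to 11.4 points.

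**Figure D5:**
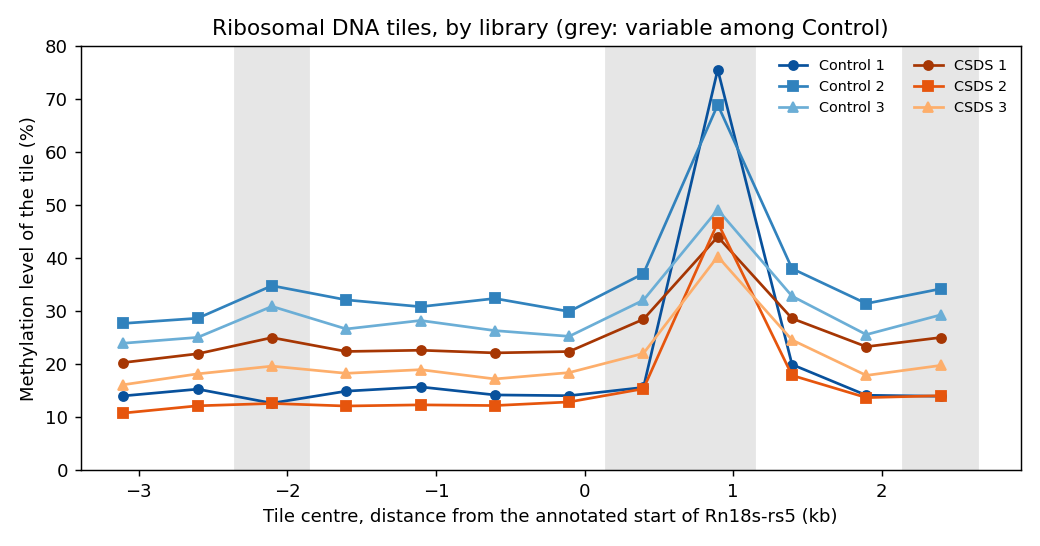
Methylation level in percent of the 12 ribosomal DNA tiles against the distance of the tile centre from the annotated start of Rn18s-rs5 in kb, 1 line per library, with variable tiles shaded. Apart from the tile near 0.9 kb, Control 2 is highest in each tile and Control 1 and CSDS 2 are lowest.

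Between CSDS and Control no variable tile was called, at an adjusted p under 0.05 and a difference of 10 points or more (0 of 1050, beside 0.0% of all tiles, quasi-binomial F test). Choosing tiles by a wide Control spread raises their error in this test. An unadjusted p under 0.05 was found in 94 tiles (8.95%), against 16.7% of all tiles. The median difference was −3.40 points, against −1.89 points over all tiles, and 747 tiles (71.1%) were lower in CSDS, against 75.5%. In the stable tiles of intermediate level the median difference was −3.51 points and 81.4% were lower. A median difference of this size was thus not particular to variable tiles. The median level over variable tiles was 54.7%, 52.6% and 50% in Control and 52.4%, 47.9% and 45.8% in CSDS, so that CSDS 1 lay among Control. With each library corrected for its mitochondrial share the median difference of variable tiles was −1.74 points. Without CSDS 1, whose mitochondrial share is near that of Control, 93 variable tiles (8.86%) were called, all lower, beside 1.51% of all tiles. The mitochondrial shares move with this split and their part was not tested.

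All 3 CSDS libraries were below all Control libraries in 32 tiles (3.05%), against 17.4% of all tiles, and above them in 1 (0.0952%), against 1.67%. In St3gal3 (gene 20441), which encodes a sialyltransferase, the tile chr4:118090501-118091000 stood at 14.7%, 26.2% and 41.1% in Control and 9.55%, 4.84% and 4.71% in CSDS (difference −21.0 points, adjusted p = 0.178). At the start of Nfix, a transcription factor gene, it was 10.4%, 6.12% and 31.1% against 4.72%, 3.88% and 1.23%. A tile 5815 bp from the Golgi protein gene Tvp23b stood at 65.5%, 56.2% and 81.6% against 42.3%, 39.0% and 46.4%. The Cracr2b tile also belongs here, with a difference of −22.6 points (adjusted p = 0.182). Each of these 4 was called without CSDS 1. The difference was −10.3 points in Cracr2b without Control 2 and −4.99 points at Nfix without Control 3, against −12.6 with it. The 1 tile that was higher lay in the fibrillin gene Fbn2, with 84.9%, 72.5% and 92.7% in Control and 93.3%, 93.1% and 93.2% in CSDS (adjusted p = 0.346), a difference of 9.86 points that was 4.43 without Control 2.

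Imprinted genes held no variable tile. Of tiles within 1 kb of the listed genes, none of 193 was variable at genes methylated on the maternal allele and none of 37 at those methylated on the paternal allele. There was also none among 98 tiles of spermatogenic stage genes, 139 of the DNA methylation and piRNA machinery, 55 of histone cluster genes, 48 of Leydig markers, 32 of immune markers and 81 of vomeronasal receptors. These counts are near what 0.755% gives in lists of this size and are no result about the lists.

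Single members lay in other lists. The germline-specific list had 1 of 58, at the start of Sycp3, another synaptonemal complex gene, with 10.5%, 35.1% and 7.25% in Control and 20.6%, 4.11% and 19.6% in CSDS. The stress axis list had 1 of 128, in Ntrk2, the receptor gene of the neurotrophin Bdnf, at 27.6%, 45.9% and 22.5% in Control and 44.1%, 41.8% and 34.3% in CSDS. Genes near variably methylated IAP elements, a class of endogenous retrovirus, had 1 of 113, in the mitochondrial kinase gene Pink1, at 38.6%, 68.5% and 71.2% in Control and 49.7%, 55.0% and 52.6% in CSDS. In each of the 3 the groups overlapped. A single tile in lists of this size, beside 0.755% over all tiles, is no result about the lists.

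Sertoli markers had 2 of 100, in Wt1, a transcription factor of Sertoli cells, at 56.3%, 69.7% and 41.9% in Control, and in Inhbb, a subunit of inhibin and activin, at 56.0%, 34.2% and 47.8%. Peritubular and endothelial markers had 1 of 67, in the calponin gene Cnn1. Hox genes had 2 of 220, the Hoxa3 tile above and 1 in Hoxd3, at 15.9%, 21.1% and 38.3% in Control and 26.4%, 18.9% and 19.8% in CSDS. Clustered protocadherins had 1 of 101, at Pcdhb12, with 61.5%, 45.2% and 31.3% in Control and 35.4%, 37.8% and 44.3% in CSDS. Olfactory receptors had 1 of 90, in Olfr284. These shares run from 0.909% to 2.00%, and whether they differ from the 0.755% over all tiles was not tested.

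The zinc finger genes Zfp900 to Zfp999, a recently expanded family of KRAB-type repressors, had 4 of 114 (3.51%), beside 0.755% over all tiles. The difference was not tested. At the start of Zfp958 the tile stood at 12.3%, 31.8% and 8.61% in Control and 5.58%, 5.998% and 8.20% in CSDS. In Zfp993, which shares its tile with Vmn2r-ps16, the levels were 4.64%, 8.59% and 30.5% in Control and 8.80%, 14.5% and 0.461% in CSDS. In Zfp949 they were 44.0%, 21.7% and 30.8% in Control and 27.4%, 30.1% and 35.6% in CSDS, and the other was in Zfp982. The high library differed from tile to tile.

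Tiles lay closely on either side of the threshold. Those just inside, at a range that rounds to 20 points, included 1 in Arl9 with 33.9%, 13.9% and 26.7% and 1 in Actn1, an actinin gene, with 79.4%, 86.1% and 66.1%. Those just outside included 1 that lay 24276 bp from Zbtb16, with 73.3%, 53.3% and 64.3%, and 1 that lay 23781 bp from Tbx5, with 10.9%, 28.1% and 30.9%. With every cytosine weighted equally the range of the Tbx5 tile was 31.4 points and that of the Actn1 tile 13.04.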

How the data were processed

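Genomic DNA of 6 samples, 3 Control and 3 CSDS, was analysed by RRBS. DNA was extracted with a DNeasy kit and libraries were built with a Zymo-Seq RRBS kit, per the labels' protocols. Per the submitters' processing notes, Trim Galore 0.5.0, Bismark 0.20.0 and GRCm38 were used. Per the file headers, the deposited tables give each CpG cytosine with its read count (coverage) and the percent of C and of T. No cytosine under 10 reads is listed. Duplicate handling and conversion rates are not given in the sources used here. The deposited percent times the coverage gave whole counts, which were summed per tile and library.

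Members and lists were chosen with earlier results of these data known. Tiles were tested with a binomial logistic model (R 4.3.3), its dispersion moderated by squeezeVar of limma 3.58.1 and held at 1 or above, an F test and Benjamini-Hochberg adjustment over all 139121 tiles. On simulated tiles, 163 of 200 changed by 20 points were recovered, with 0 false calls. The changed tiles had a mean level of 30% to 70%, the spread between libraries was set alike for all tiles, and no library-wide shift was added. An unadjusted p under 0.05 in this F test was found in 5.07% of unchanged simulated tiles, against 16.7% of real tiles. The recovery therefore does not carry over to variable tiles. Other values came from Python 3.11.15. Genes were taken from the RefSeq table of GRCm38.p6, within 1 kb or as the nearest gene. Exons were not used.

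Named tiles are the 8 of largest Control range, the 6 of largest CSDS range, the 4 each way of smallest p with groups apart, 3 runs, 6 at promoter windows, 3 on each side of the threshold and up to 3 per gene list. Zfp982, the deep tiles and the tiles varying in both groups are outside this rule. Of the 10 deepest variable tiles, 1 is not reported here by gene.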

Additional observations from a re-analysis of the deposited data

How the results depend on the processing

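Beside the 1050 variable tiles reported, the rule gave 346 with a summed coverage of 200 or more, and 355 with a threshold of 25 points, of which 14.1% had a CSDS range of 20 points. With 30 or more reads per cytosine in every library there were 457 (8.75%), and with 50 or more 80 (7.5%), settings chosen after seeing the data. Leaving out 1 library gave 338 to 508 tiles, the fewest without Control 2, and a CSDS share of 3.52% to 6.19%, since a range over 2 libraries is smaller. The count was 771 to 1136 with at least 5 cytosines, a grid shifted by 250 bp, equal weight per cytosine or the top 0.1% of coverage left out, and the share 9.60% to 12.1%. The median difference stayed below 0 in every setting run, from −4.70 points without CSDS 1 to −1.74 points with the mitochondrial correction. Calls between the groups were 0 with limma on logit values (69 variable tiles at an unadjusted p under 0.05), 0 without moderation (10) and 0 to 93 with 1 library left out, the 93 without CSDS 1. In that setting Cracr2b (−22.7), St3gal3 (−22.6), Tvp23b (−25.1) and Nfix (−13.3 points) passed. The replicate numbers did not pair the libraries (correlations of deviations −0.0501, −0.0614 and 0.0140), and with a replicate block 0 tiles were called (104 at an unadjusted p under 0.05). Of 190 single-tile values recomputed, 10 moved by over 1.5 times, 7 under equal weighting and 3 with a Control library left out. They are given above, save the range of 1 deep ribosomal tile that is no member (chr17:39843501-39844000), from 13.4 to 6.82 points.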

Other observations

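An even number of reads was more frequent than an odd one in the deposited coverage. Among cytosines under 60 reads, 62.0% to 64.8% had an even coverage in each library, and in variable tiles 55.7% to 62.2%. Its bearing on the levels was not tested.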
